A study of Homo sapiens with 12 samples.

Results

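The DNA replication and G1/S genes are 45 listed human genes whose products license, fire and copy replication origins, supply nucleotides, or drive cells out of G1 into S phase. Each gene was read by the probe set (a group of short probes combined into 1 level) that the array annotation gives to that symbol alone and that had the highest mean over the 12 arrays. All 45 were found among 19775 genes with such a probe set, and all 45 were among the 14080 genes bright enough to test, with a log2 level of at least 5 on at least 3 arrays. Transcripts were measured on Affymetrix 3′ arrays in U937, an established human myeloid leukaemia line, to ask how the oncogenic transcription factor EVI1 alters the response to all-trans retinoic acid (ATRA), an activator of retinoic acid receptors. Every culture was growing logarithmically when treatment began and was treated for 24 h. The EVI1 ATRA group was transduced with an EVI1 expression vector and received 1 µM ATRA, and the EVI1 DMSO group carried the same vector and received the solvent DMSO. The vector ATRA group was transduced with the empty vector and received 1 µM ATRA, and the vector DMSO group carried the empty vector and received DMSO. Each group held 3 arrays, numbered 1 to 3 and described as biological replicates, so p-values measure the spread between these replicates. The promoter of the expression vector and whether the transduced cells were a pool or a clone are not given in the sources used here.

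In G1, the origin recognition complex, CDC6 and CDT1 load the MCM helicase onto DNA, a step called licensing. CDC7 and cyclin E kinases with MCM10, CDC45 and the GINS complex then switch the helicase on, and polymerases, the PCNA clamp and its loaders copy both strands. Many of these genes are transcribed in late G1 by E2F factors, and they fall when myeloid cells leave the cycle during maturation.

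Arrays of a group correlated over all genes tested with r from 0.978 to 0.994, and the array medians lay between 5.29 and 5.35. Of 9 U937 and myelomonocytic markers named alone on a probe set, 8 passed the signal limit (ITGB2, PTPRC, SPI1, CD4, LYZ, FCGR2A, MPO and CSF1R) and CD14 did not. Of the markers of other cell types, 5 of 5 erythroid and megakaryocyte genes, 4 of 6 lymphoid genes and 2 of 7 epithelial and stromal genes passed. The mean level of the erythroid and megakaryocyte list was 5.68 to 5.93 on EVI1 ATRA arrays, 5.72 to 5.85 on EVI1 DMSO arrays, 5.68 to 5.75 on vector ATRA arrays and 5.77 to 6.0 on vector DMSO arrays. The 5 probe sets of MECOM, the gene that encodes EVI1, read 2.61 to 3.60 in all groups, with a smallest limma adjusted p of 0.248 between EVI1 and vector cells. The arrays therefore do not check the EVI1 label, and the groups are named by their labels. EVI1 ATRA array 1 stood apart from its group in the replication genes. For ATRA in EVI1 cells, and for EVI1 against vector cells under ATRA, counts called among the 45 are given with and without this array. Counts by role group, of other gene lists and of compared groups that did not overlap include it.

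Promoters of 38 of the 45 genes were found in RefSeq tables of GRCh38.p14, as 48 windows of 300 bases around annotated starts. They were searched on both strands, with overlapping matches counted, for the E2F-type words TTTCCCGC, TTTCGCGC, TTTGCCGC and TTTGGCGC. At least 1 word stood in 20 of the 48 windows (41.7%), against 1164 of 35116 windows of all genes (3.31%). The CCAAT word stood in 27 of the 48 windows (56.2%), against 34.6% of all windows. By gene, an E2F-type word was present for 6 of the 12 genes with a window that fell with ATRA in EVI1 cells, and for 14 of the 26 that were not called. These are 50% of the genes that fell and 53.8% of the others. The calls used here are those of the fit without the replicate number as a block. The 26 include genes that fell with that block, as given below, and a split by the calls with the block was not made. The stretches below run 5′ to 3′ from 170 bases before to 30 bases after the start, with the E2F-type words in capitals. They show 4 genes that fell with ATRA in EVI1 cells, and E2F1 itself. In MCM6 and MCM2, each capital run is a palindrome-like pair of words that overlap on opposite strands. A match describes the letters of the window and does not show that a factor binds there.
MCM6, chr2:135876414-135876613, minus strand: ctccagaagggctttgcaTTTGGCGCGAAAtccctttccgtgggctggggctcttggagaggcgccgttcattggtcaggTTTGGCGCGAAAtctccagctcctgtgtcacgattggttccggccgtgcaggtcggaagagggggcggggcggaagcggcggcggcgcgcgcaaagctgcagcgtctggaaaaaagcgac
MCM2, chr3:127598241-127598440, plus strand: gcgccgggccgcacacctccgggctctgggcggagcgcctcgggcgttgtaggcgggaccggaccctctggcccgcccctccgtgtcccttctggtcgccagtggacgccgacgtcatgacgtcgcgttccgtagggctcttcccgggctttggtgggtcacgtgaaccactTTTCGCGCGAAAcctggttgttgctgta
CDC6, chr17:40287709-40287908, plus strand: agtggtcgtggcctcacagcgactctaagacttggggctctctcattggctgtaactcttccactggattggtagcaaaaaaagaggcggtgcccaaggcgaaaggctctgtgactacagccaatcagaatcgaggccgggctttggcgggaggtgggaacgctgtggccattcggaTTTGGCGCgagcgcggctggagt
POLE2, chr14:49688185-49688384, minus strand: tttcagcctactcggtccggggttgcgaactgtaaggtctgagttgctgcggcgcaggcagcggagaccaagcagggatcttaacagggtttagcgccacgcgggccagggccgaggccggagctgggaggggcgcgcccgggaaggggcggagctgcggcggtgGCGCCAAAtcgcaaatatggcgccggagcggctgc
E2F1, chr20:33686356-33686555, minus strand: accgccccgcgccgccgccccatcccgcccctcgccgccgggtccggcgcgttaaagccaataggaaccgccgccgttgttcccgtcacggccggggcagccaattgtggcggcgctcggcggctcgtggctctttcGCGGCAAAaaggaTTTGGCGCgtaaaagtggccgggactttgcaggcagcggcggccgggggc

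With ATRA, most replication genes were lower than with DMSO in EVI1 cells. In EVI1 cells 43 of the 45 differences between ATRA and DMSO were below 0, where 53.8% of all genes were, with a median of -0.51 on the log2 scale, against a median of -0.02 over all genes tested. Of the 45, 13 fell at an adjusted p under 0.05 by limma over all 14080 genes and 0 rose, where 7.66% of all genes fell and 7.45% rose. The 13 were CDC6, MCM2, MCM4 and MCM6 of origin licensing, MCM10 and CDC45 of helicase activation, POLA2, POLD2 and POLE2 of the polymerases, and PCNA, RFC2, RFC4 and RFC5 of the clamp and its loader. Arrays of the same number deviated together across groups. With that number as a block in the fit, 33 genes fell, all 13 included, and ORC6 rose, where 19.4% of all genes fell and 16.3% rose. At an unadjusted p under 0.05, 29 were lower, against 15.3% of all genes. With only the EVI1 ATRA and EVI1 DMSO groups in the fit, 0 of the 45 fell, where 2.39% of all genes did. The 3 EVI1 ATRA arrays lay below all 3 EVI1 DMSO arrays for 12 genes, against 14.5% of all genes. In bulk RNA, fewer cells in S phase and less of these transcripts per cell cannot be told apart.

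**Figure D1:**
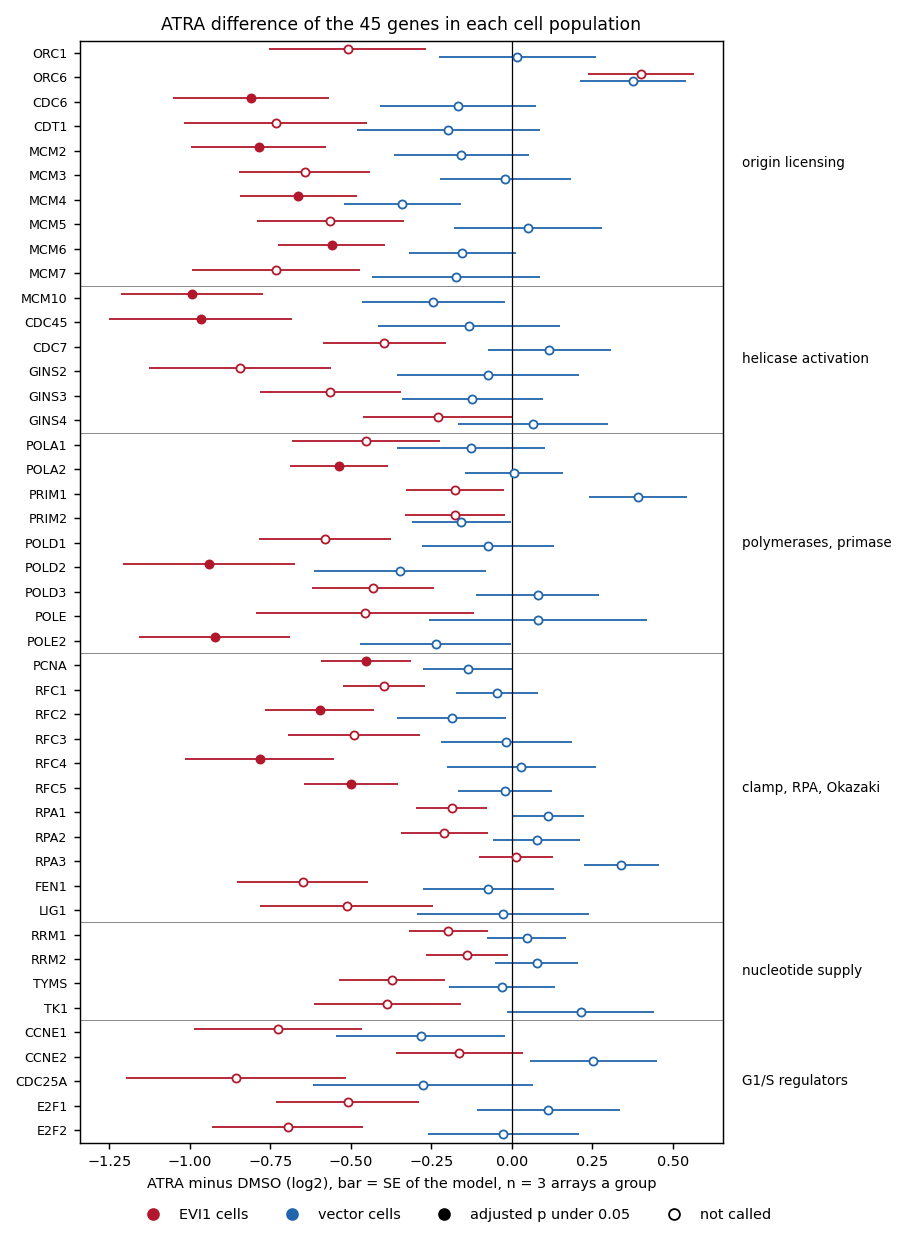
Difference between ATRA and DMSO on the log2 scale for each of the 45 genes, in EVI1 cells (red, upper point of each row) and vector cells (blue), with the standard error of the limma model and 3 arrays a group. Filled points passed an adjusted p under 0.05 without the block: 13 red points, all left of 0, and 0 blue points.

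Within the EVI1 ATRA group, array 1 stood apart from arrays 2 and 3. Relative to the mean of the vector DMSO arrays, the median of the 45 genes was -0.01, -0.77 and -0.91 on EVI1 ATRA arrays 1, 2 and 3, and 0.14, -0.07 and -0.05 on EVI1 DMSO arrays. It was 0.14, -0.13 and -0.12 on vector ATRA arrays and 0.10, -0.11 and 0.01 on vector DMSO arrays. Array 1 was thus at the solvent level while arrays 2 and 3 were far below it, and array 1 was the highest of its group for 44 of the 45 genes, all but PRIM2, against 43.2% of all genes. Arrays 2 and 3 both lay below all 9 arrays of the other groups for 39 genes (14.7% of all genes), and all 3 EVI1 ATRA arrays did so for MCM4, POLA2 and PCNA (3.49% of all genes), counts chosen after the values were seen. Array 1 lay nearer to arrays 2 and 3 than to the DMSO arrays over 491 other genes, those called with ATRA in vector cells outside the lists used here and signed by their direction there. Their median difference from the mean of the vector DMSO arrays was 0.82, 0.93 and 1.02 on the EVI1 ATRA arrays and -0.03, 0.00 and 0.24 on the EVI1 DMSO arrays. It was 0.72, 0.80 and 0.73 on the vector ATRA arrays and -0.07, -0.04 and 0.11 on the vector DMSO arrays. These 6 arrays gave the differences by which the genes were called. The spread in that fit came from all 12 arrays, so the choice was not independent of the EVI1 arrays. The median of 31 mitosis genes was 0.12, -0.44 and -0.77 on the EVI1 ATRA arrays, so array 1 stood apart there too. The 3′ minus 5′ difference, a sign of RNA integrity, was 0.20, 0.19 and 0.17 for GAPDH and 0.61, 0.39 and 0.51 for ACTB on these arrays, and its part in the result was not tested. Without EVI1 ATRA array 1, 37 genes fell (12.7% of all genes) and the median was -0.80. Without EVI1 ATRA array 2 or array 3, 0 genes fell, where 3.78% and 2.99% of all genes did. The count was 1 without EVI1 DMSO array 1 or array 2 (3.74% and 3.64% of all genes) and 4 without array 3 (6.67%). It was 7 without vector ATRA array 3 (6.53%), 7 without vector DMSO array 1 (6.61%), and 8 without vector DMSO array 2 or array 3 (6.65% and 6.75%).

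**Figure D2:**
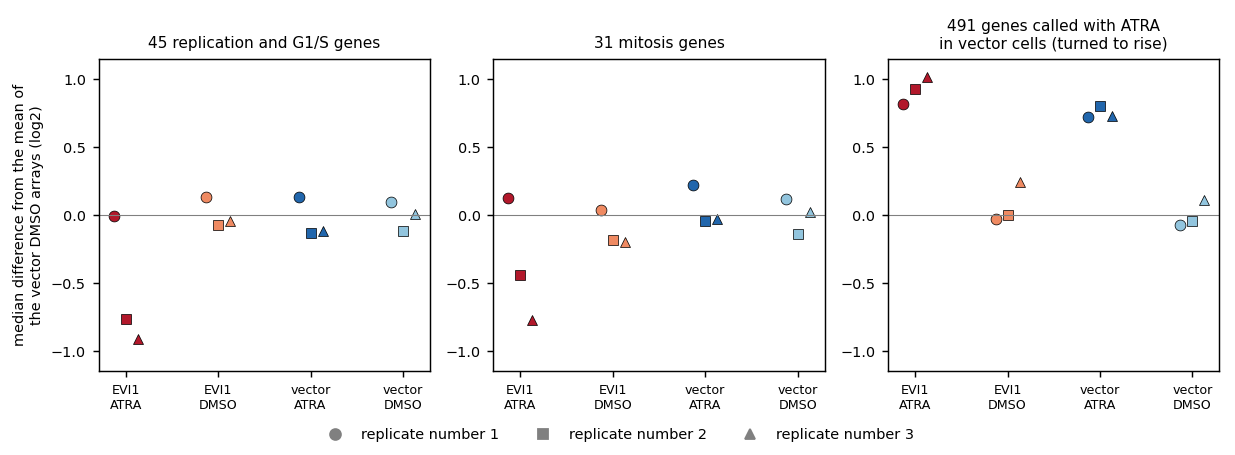
Median log2 difference of each array from the mean of the vector DMSO arrays, for the 45 replication and G1/S genes (left), 31 mitosis genes (middle) and 491 genes called with ATRA in vector cells and turned to rise (right); shapes mark the replicate number. EVI1 ATRA array 1 sat at -0.01 for the replication genes, beside -0.77 and -0.91 for the others, and at 0.82 in the right panel, beside 0.93 and 1.02.

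Of the 10 licensing genes, 9 were lower with ATRA in EVI1 cells, with a median difference of -0.65. Of these, 4 fell without the block and 9 with it, where 7.66% and 19.4% of all genes fell. In what follows, levels are log2 values on arrays 1, 2 and 3 in that order, and a trailing 0 is dropped. CDC6, the ATPase that recruits the helicase to origins, read 9.26, 8.26 and 8.04 in EVI1 ATRA cells and 9.51, 9.23 and 9.25 in EVI1 DMSO cells, and 9.31, 9.18 and 9.1 in vector ATRA cells and 9.43, 9.28 and 9.38 in vector DMSO cells. Arrays 2 and 3 of EVI1 ATRA were below all others and array 1 overlapped EVI1 DMSO. The difference was -0.81 ± 0.24 (SE, n = 3), a 1.75-fold lower level, with a limma adjusted p of 0.042. This SE, like those below, rests on a spread shared by the 4 groups. The SD of CDC6 was 0.65 in EVI1 ATRA cells and 0.16 in EVI1 DMSO cells. MCM2, a subunit of the helicase, read 11.51, 10.76 and 10.51 in EVI1 ATRA cells and 11.89, 11.61 and 11.64 in EVI1 DMSO cells, and 11.78, 11.5 and 11.42 in vector ATRA cells and 11.83, 11.62 and 11.72 in vector DMSO cells. All 3 EVI1 ATRA arrays were below EVI1 DMSO, with a difference of -0.79 ± 0.21 (adjusted p = 0.0271). MCM4, another helicase subunit, read 10.53, 9.77 and 9.68 in EVI1 ATRA cells and 10.71, 10.57 and 10.69 in EVI1 DMSO cells, and 10.8, 10.69 and 10.81 in vector ATRA cells and 11.23, 11.02 and 11.07 in vector DMSO cells. It was lowest in EVI1 ATRA and highest in vector DMSO with no overlap between these groups, and it fell with ATRA in EVI1 cells, with a difference of -0.66 ± 0.18 (adjusted p = 0.03). MCM6, the subunit whose promoter holds the most E2F-type words among those printed, read 12.94, 12.37 and 12.19 in EVI1 ATRA cells and 13.2, 13.02 and 12.96 in EVI1 DMSO cells, and 13.13, 12.91 and 13.0 in vector ATRA cells and 13.27, 13.08 and 13.15 in vector DMSO cells. Its EVI1 groups did not overlap, with a difference of -0.56 ± 0.17 (adjusted p = 0.0408).

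Of the fits without and with the replicate number as a block, the other licensing genes passed only in the one with it. MCM3, MCM5, MCM7, CDT1 and ORC1 also passed with array weights, and without EVI1 ATRA array 1. For MCM3, MCM5, MCM7, CDT1 and ORC1, arrays 2 and 3 of EVI1 ATRA lay below all EVI1 DMSO arrays and array 1 lay within their range. MCM3 read 12.1, 11.23 and 11.26 in EVI1 ATRA cells and 12.23, 12.01 and 12.28 in EVI1 DMSO cells, and 12.33, 11.99 and 12.23 in vector ATRA cells and 12.27, 12.04 and 12.3 in vector DMSO cells. Its ATRA difference in EVI1 cells was -0.64 ± 0.20 (limma adjusted p = 0.0531, 0.0068 with the block). MCM5 read 11.23, 10.24 and 10.29 in EVI1 ATRA cells and 11.38, 10.96 and 11.11 in EVI1 DMSO cells, and 11.52, 11.17 and 11.19 in vector ATRA cells and 11.34, 11.1 and 11.29 in vector DMSO cells. The difference was -0.56 ± 0.23 (adjusted p = 0.123, 0.0113 with the block). MCM7 read 11.77, 10.98 and 10.58 in EVI1 ATRA cells and 12.07, 11.7 and 11.76 in EVI1 DMSO cells, and 11.56, 10.93 and 11.02 in vector ATRA cells and 11.53, 11.21 and 11.29 in vector DMSO cells. Unlike its partners it was higher in EVI1 DMSO than in vector DMSO with no overlap, and the ATRA difference in EVI1 cells was -0.73 ± 0.26 (adjusted p = 0.0802, 0.00356 with the block). CDT1, the loader that geminin inhibits, read 9.28, 8.32 and 8.02 in EVI1 ATRA cells and 9.59, 9.21 and 9.02 in EVI1 DMSO cells, and 9.35, 8.83 and 8.76 in vector ATRA cells and 9.41, 9.01 and 9.11 in vector DMSO cells. It differed by -0.73 ± 0.28 (adjusted p = 0.107, 0.00295 with the block). ORC1, the largest subunit of the origin recognition complex, read 8.99, 8.14 and 7.9 in EVI1 ATRA cells and 9.0, 8.82 and 8.74 in EVI1 DMSO cells, and 9.23, 8.85 and 8.68 in vector ATRA cells and 9.11, 8.67 and 8.93 in vector DMSO cells. It differed by -0.51 ± 0.24 (adjusted p = 0.191, 0.0232 with the block). ORC6, the smallest subunit of that complex, went the other way and read 10.65, 10.17 and 10.46 in EVI1 ATRA cells and 9.96, 9.85 and 10.27 in EVI1 DMSO cells, and 10.16, 10.04 and 10.56 in vector ATRA cells and 9.82, 9.84 and 9.97 in vector DMSO cells. It was higher with ATRA at every number in both cell populations, by 0.40 ± 0.16 in EVI1 cells (adjusted p = 0.128, 0.0186 with the block). With the block and without EVI1 ATRA array 1, chosen after seeing the data, the ORC6 difference in EVI1 cells was 0.25 and did not pass (adjusted p = 0.0654).

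**Figure D3:**
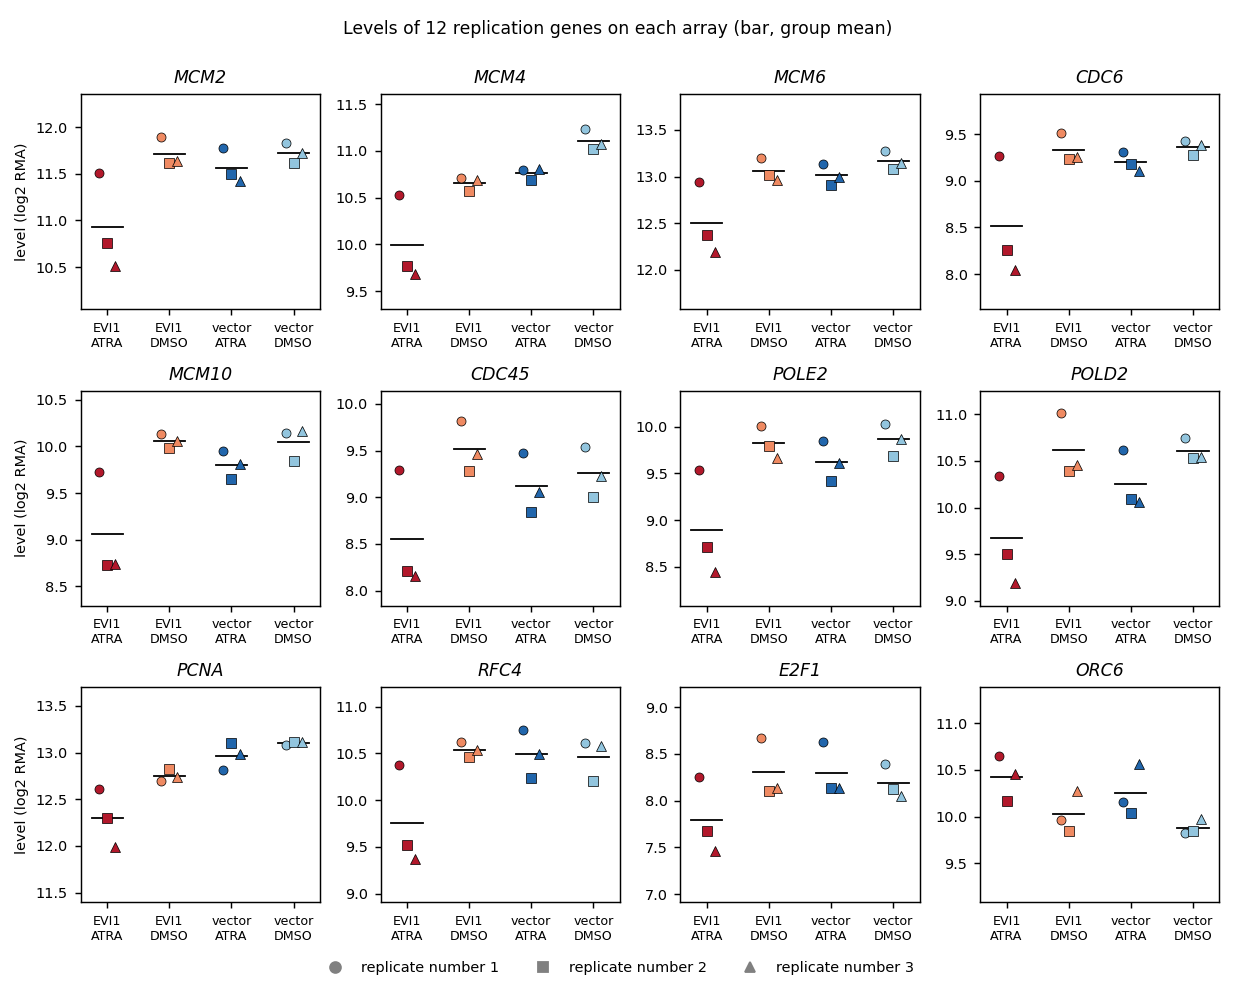
Log2 level of 12 of the genes on each of the 12 arrays; bars are group means and shapes mark the replicate number. EVI1 ATRA arrays 2 and 3 lie below the other groups in 11 panels, with array 1 nearer to them, while ORC6 is higher with ATRA; MCM10 read 9.72, 8.73 and 8.74 in EVI1 ATRA cells and 10.13, 9.98 and 10.06 in EVI1 DMSO cells.

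Helicase activation held MCM10 and CDC45, the genes with the largest ATRA differences of the 45 in EVI1 cells. All 6 were lower in EVI1 cells, with a median of -0.70. Of the 6, 2 fell without the block and 4 with it, where 7.66% and 19.4% of all genes fell. MCM10, which helps start the unwinding helicase, read 9.72, 8.73 and 8.74 in EVI1 ATRA cells and 10.13, 9.98 and 10.06 in EVI1 DMSO cells, and 9.95, 9.65 and 9.81 in vector ATRA cells and 10.14, 9.84 and 10.16 in vector DMSO cells. The EVI1 groups did not overlap, and its difference of -0.99 ± 0.22 (SE, n = 3), 1.99-fold lower, had the smallest limma adjusted p of the set, 0.0124. CDC45, a subunit of the active helicase, read 9.29, 8.21 and 8.16 in EVI1 ATRA cells and 9.82, 9.28 and 9.46 in EVI1 DMSO cells, and 9.47, 8.84 and 9.06 in vector ATRA cells and 9.54, 9.0 and 9.23 in vector DMSO cells. Array 1 of EVI1 ATRA overlapped EVI1 DMSO by a small margin, and the difference was -0.97 ± 0.28 (adjusted p = 0.0394). In the other 4 genes, array 1 of EVI1 ATRA lay within or above the EVI1 DMSO range and arrays 2 and 3 lay below it. GINS2 read 10.52, 9.43 and 9.19 in EVI1 ATRA cells and 10.88, 10.44 and 10.35 in EVI1 DMSO cells, and 10.66, 10.33 and 10.28 in vector ATRA cells and 10.7, 10.4 and 10.39 in vector DMSO cells. This GINS subunit differed by -0.84 ± 0.28 (adjusted p = 0.0655, 0.00287 with the block). GINS3 read 9.03, 8.26 and 8.1 in EVI1 ATRA cells and 9.23, 9.07 and 8.78 in EVI1 DMSO cells, and 9.16, 8.92 and 8.83 in vector ATRA cells and 9.33, 8.93 and 9.02 in vector DMSO cells. It differed by -0.56 ± 0.22 (adjusted p = 0.108, 0.00531 with the block). GINS4 read 8.33, 7.38 and 7.18 in EVI1 ATRA cells and 8.04, 7.77 and 7.77 in EVI1 DMSO cells, and 8.6, 8.42 and 8.27 in vector ATRA cells and 8.37, 8.32 and 8.4 in vector DMSO cells. It was already lower in EVI1 DMSO than in vector DMSO with no overlap, and its ATRA difference of -0.23 ± 0.23 in EVI1 cells did not pass (adjusted p = 0.6, 0.369 with the block). It was -0.58 and passed without EVI1 ATRA array 1 (adjusted p = 0.0098). CDC7, the kinase that phosphorylates the MCM complex, read 9.29, 8.52 and 8.48 in EVI1 ATRA cells and 9.21, 9.04 and 9.23 in EVI1 DMSO cells, and 9.48, 9.18 and 9.44 in vector ATRA cells and 9.32, 9.07 and 9.36 in vector DMSO cells. Its difference of -0.40 ± 0.19 did not pass either (adjusted p = 0.195, 0.0538 with the block), while without that array CDC7 differed by -0.66 and passed (adjusted p = 0.00517).

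All 9 polymerase and primase genes were lower with ATRA in EVI1 cells, with a median of -0.46. Of the 9, 3 fell without the block and 7 with it, where 7.66% and 19.4% of all genes fell. POLD2, an accessory subunit of polymerase delta, read 10.34, 9.5 and 9.19 in EVI1 ATRA cells and 11.01, 10.39 and 10.45 in EVI1 DMSO cells, and 10.62, 10.09 and 10.06 in vector ATRA cells and 10.74, 10.53 and 10.54 in vector DMSO cells. The EVI1 groups did not overlap and differed by -0.94 ± 0.27 (SE, n = 3; limma adjusted p = 0.0352). POLE2, the second subunit of polymerase epsilon, read 9.54, 8.71 and 8.44 in EVI1 ATRA cells and 10.01, 9.79 and 9.66 in EVI1 DMSO cells, and 9.85, 9.42 and 9.61 in vector ATRA cells and 10.03, 9.69 and 9.87 in vector DMSO cells. These EVI1 groups did not overlap either, with a difference of -0.92 ± 0.23 (adjusted p = 0.0217). POLA2, the B subunit of polymerase alpha, read 8.9, 8.34 and 8.2 in EVI1 ATRA cells and 9.02, 9.08 and 8.95 in EVI1 DMSO cells, and 9.18, 9.18 and 8.99 in vector ATRA cells and 9.07, 9.12 and 9.14 in vector DMSO cells. All 3 EVI1 ATRA arrays were below the 9 others, and the ATRA difference was -0.54 ± 0.15 (adjusted p = 0.0356).

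Of the fits without and with the block, the catalytic polymerase subunits passed only in the one with it. Without EVI1 ATRA array 1 they passed without the block too, and with array weights POLA1 and POLD1 passed. For POLA1, POLD1, POLE and POLD3, arrays 2 and 3 of EVI1 ATRA lay below all EVI1 DMSO arrays and array 1 lay within or above their range. POLA1 of polymerase alpha read 10.01, 9.35 and 8.91 in EVI1 ATRA cells and 10.11, 9.79 and 9.73 in EVI1 DMSO cells, and 10.19, 9.87 and 9.74 in vector ATRA cells and 10.21, 9.98 and 9.99 in vector DMSO cells. It differed by -0.45 ± 0.23 in EVI1 cells (limma adjusted p = 0.223, 0.0235 with the block). POLD1 of polymerase delta read 9.38, 8.63 and 8.57 in EVI1 ATRA cells and 9.57, 9.28 and 9.47 in EVI1 DMSO cells, and 9.62, 9.12 and 9.23 in vector ATRA cells and 9.48, 9.21 and 9.5 in vector DMSO cells. It differed by -0.58 ± 0.21 (adjusted p = 0.079, 0.00596 with the block). POLE of polymerase epsilon read 8.84, 7.55 and 7.65 in EVI1 ATRA cells and 8.84, 8.03 and 8.54 in EVI1 DMSO cells, and 9.03, 8.31 and 8.41 in vector ATRA cells and 8.9, 8.19 and 8.42 in vector DMSO cells. Array 1 was the highest of each of the 4 groups, and the difference was -0.46 ± 0.34 (adjusted p = 0.433, 0.0299 with the block). POLD3, an accessory subunit of polymerase delta, read 9.05, 8.22 and 8.41 in EVI1 ATRA cells and 9.03, 8.91 and 9.03 in EVI1 DMSO cells, and 9.16, 8.78 and 9.0 in vector ATRA cells and 8.95, 8.69 and 9.06 in vector DMSO cells. It differed by -0.43 ± 0.19 (adjusted p = 0.157, 0.0274 with the block). PRIM1, the catalytic primase subunit, read 10.77, 10.36 and 10.2 in EVI1 ATRA cells and 10.66, 10.48 and 10.72 in EVI1 DMSO cells, and 10.96, 10.75 and 10.85 in vector ATRA cells and 10.52, 10.24 and 10.62 in vector DMSO cells. In EVI1 cells it differed by -0.18 ± 0.15 and did not pass with or without the block, while in vector cells ATRA arrays lay above DMSO arrays. PRIM2, the large primase subunit, differed by -0.18 in EVI1 cells and -0.16 in vector cells and was called in no comparison with all 12 arrays. With the block and without EVI1 ATRA array 1, PRIM2 was called in EVI1 cells, at -0.27 (adjusted p = 0.0406).

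Among the 11 genes of the clamp, its loader, single-strand binding and Okazaki fragment joining, the median ATRA difference in EVI1 cells was -0.49. Of the 11, 4 fell without the block and 8 with it, where 7.66% and 19.4% of all genes fell. PCNA, the sliding clamp, read 12.61, 12.3 and 11.99 in EVI1 ATRA cells and 12.7, 12.82 and 12.74 in EVI1 DMSO cells, and 12.81, 13.1 and 12.98 in vector ATRA cells and 13.08, 13.11 and 13.11 in vector DMSO cells. All EVI1 ATRA arrays were below the 9 others, and the difference was -0.45 ± 0.14 (SE, n = 3; limma adjusted p = 0.049). RFC2, a loader subunit, read 10.75, 10.33 and 9.93 in EVI1 ATRA cells and 11.0, 10.9 and 10.9 in EVI1 DMSO cells, and 10.76, 10.56 and 10.44 in vector ATRA cells and 10.83, 10.75 and 10.74 in vector DMSO cells. The EVI1 groups did not overlap and differed by -0.60 ± 0.17 (adjusted p = 0.0344). RFC4 read 10.38, 9.52 and 9.37 in EVI1 ATRA cells and 10.62, 10.46 and 10.54 in EVI1 DMSO cells, and 10.75, 10.24 and 10.49 in vector ATRA cells and 10.61, 10.2 and 10.58 in vector DMSO cells. This loader subunit fell with no overlap, with a difference of -0.78 ± 0.23 (adjusted p = 0.0403). RFC5 read 10.26, 9.79 and 9.68 in EVI1 ATRA cells and 10.29, 10.48 and 10.46 in EVI1 DMSO cells, and 10.43, 10.25 and 10.41 in vector ATRA cells and 10.39, 10.24 and 10.52 in vector DMSO cells. Its EVI1 groups were apart by -0.50 ± 0.15 (adjusted p = 0.0387), but another RFC5 probe set went the other way, by 0.65. In RFC1 and RFC3, array 1 of EVI1 ATRA again reached the EVI1 DMSO range while arrays 2 and 3 lay below it. RFC1, the large loader subunit, read 9.49, 9.16 and 9.02 in EVI1 ATRA cells and 9.49, 9.71 and 9.66 in EVI1 DMSO cells, and 9.85, 9.77 and 9.83 in vector ATRA cells and 9.88, 9.73 and 9.98 in vector DMSO cells. It differed by -0.40 ± 0.13 (adjusted p = 0.0552, 0.0244 with the block). RFC3 read 10.52, 9.78 and 9.69 in EVI1 ATRA cells and 10.56, 10.38 and 10.52 in EVI1 DMSO cells, and 10.69, 10.24 and 10.6 in vector ATRA cells and 10.66, 10.28 and 10.64 in vector DMSO cells. It differed by -0.49 ± 0.20 (adjusted p = 0.134, 0.0204 with the block).

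FEN1, the flap endonuclease that trims Okazaki fragments, read 11.63, 10.82 and 10.63 in EVI1 ATRA cells and 11.74, 11.65 and 11.64 in EVI1 DMSO cells, and 11.71, 11.54 and 11.45 in vector ATRA cells and 11.75, 11.54 and 11.63 in vector DMSO cells. The EVI1 groups did not overlap and differed by -0.65 ± 0.20 (SE, n = 3), just outside the threshold without the block (limma adjusted p = 0.0507, 0.00739 with it). LIG1, the ligase that joins the fragments, read 10.07, 9.02 and 8.83 in EVI1 ATRA cells and 10.07, 9.66 and 9.73 in EVI1 DMSO cells, and 10.01, 9.53 and 9.61 in vector ATRA cells and 9.89, 9.59 and 9.75 in vector DMSO cells. Array 1 of EVI1 ATRA equalled the highest EVI1 DMSO array, and the difference was -0.51 ± 0.27 (adjusted p = 0.235, 0.0345 with the block). RPA3, the small subunit of the single-strand binding protein, read 12.22, 11.99 and 11.91 in EVI1 ATRA cells and 11.93, 11.96 and 12.19 in EVI1 DMSO cells, and 12.5, 12.55 and 12.56 in vector ATRA cells and 12.13, 12.11 and 12.35 in vector DMSO cells. The EVI1 groups overlapped and differed by 0.01 ± 0.12, and the vector ATRA arrays lay above the vector DMSO arrays. RPA1 and RPA2, the larger subunits, differed by -0.19 and -0.21 in EVI1 cells. They were called in no comparison of the fits with and without the block on all 12 arrays. With array weights, RPA1 was called lower in EVI1 than in vector cells under ATRA. With the block and without EVI1 ATRA array 1 both were called with ATRA in EVI1 cells, RPA1 at -0.30 (adjusted p = 0.0261) and RPA2 at -0.28 (adjusted p = 0.0272).

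The 4 nucleotide supply genes had the smallest median difference of the 6 role groups in EVI1 cells, -0.29. In TYMS and TK1, arrays 2 and 3 of EVI1 ATRA lay below all EVI1 DMSO arrays and array 1 did not. TYMS, which makes thymidylate, read 13.3, 12.85 and 12.52 in EVI1 ATRA cells and 13.41, 13.22 and 13.16 in EVI1 DMSO cells, and 13.33, 13.17 and 13.15 in vector ATRA cells and 13.34, 13.18 and 13.22 in vector DMSO cells. With the block and all 12 arrays it was the only one of the 4 called in EVI1 cells, where 19.4% of all genes fell. The TYMS difference was -0.37 ± 0.16 (SE, n = 3; limma adjusted p = 0.157, 0.0244 with the block). TK1, the thymidine kinase of cycling cells, read 10.35, 9.7 and 9.25 in EVI1 ATRA cells and 10.37, 10.17 and 9.92 in EVI1 DMSO cells, and 10.55, 10.28 and 10.08 in vector ATRA cells and 10.07, 10.13 and 10.07 in vector DMSO cells. It differed by -0.39 ± 0.23 in EVI1 cells and 0.21 ± 0.23 in vector cells, and neither passed. The TK1 difference in EVI1 cells was -0.68 and passed without EVI1 ATRA array 1 (adjusted p = 0.0193). RRM1 and RRM2, the subunits of ribonucleotide reductase, differed by -0.20 and -0.14 in EVI1 cells. They were called in no comparison of the fits with and without the block on all 12 arrays. With array weights, RRM1 fell with ATRA in EVI1 cells, and both were lower in EVI1 than in vector cells under ATRA. Without EVI1 ATRA array 1, RRM1 fell with ATRA in EVI1 cells, with a difference of -0.33 (adjusted p = 0.0442), and RRM2 differed by -0.30 (adjusted p = 0.0542, or 0.0203 with the block). Both were then lower in EVI1 than in vector cells under ATRA, RRM1 at -0.38 (adjusted p = 0.0379) and RRM2 at -0.47 (adjusted p = 0.0129).

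The 5 G1/S regulators had a median difference of -0.70 in EVI1 cells. Of the 5, 0 fell without the block and 4 with it, where 7.66% and 19.4% of all genes fell. In these 4, array 1 of EVI1 ATRA overlapped EVI1 DMSO and arrays 2 and 3 lay below it. CDC25A, the phosphatase that activates CDK2, read 10.16, 8.9 and 8.82 in EVI1 ATRA cells and 10.64, 9.88 and 9.93 in EVI1 DMSO cells, and 10.28, 9.55 and 9.65 in vector ATRA cells and 10.43, 9.9 and 9.98 in vector DMSO cells. Array 1 was the highest of each group. The difference of -0.86 ± 0.34 (SE, n = 3) passed with the block and not without it (limma adjusted p = 0.116, 0.00107 with it). CDC25A also passed with the mean of probe sets and with array weights. CCNE1, cyclin E1, read 7.92, 6.85 and 6.98 in EVI1 ATRA cells and 8.26, 7.67 and 8.0 in EVI1 DMSO cells, and 8.03, 7.47 and 7.87 in vector ATRA cells and 8.3, 7.88 and 8.04 in vector DMSO cells. It differed by -0.73 ± 0.26 (adjusted p = 0.0846, 0.00211 with the block). E2F1, an activator of the G1/S program, read 8.25, 7.67 and 7.46 in EVI1 ATRA cells and 8.67, 8.1 and 8.14 in EVI1 DMSO cells, and 8.63, 8.14 and 8.13 in vector ATRA cells and 8.39, 8.12 and 8.05 in vector DMSO cells. It differed by -0.51 ± 0.22 (adjusted p = 0.15, 0.00148 with the block). E2F2, a related activator, read 9.56, 8.63 and 8.41 in EVI1 ATRA cells and 9.76, 9.52 and 9.41 in EVI1 DMSO cells, and 9.69, 9.49 and 9.4 in vector ATRA cells and 9.65, 9.53 and 9.48 in vector DMSO cells. It differed by -0.70 ± 0.23 (adjusted p = 0.0663, 0.00681 with the block). CCNE2, cyclin E2, differed by -0.16 in EVI1 cells and 0.25 in vector cells. It was called in no comparison of the fits with and without the block on all 12 arrays. With array weights, CCNE2 fell with ATRA in EVI1 cells and was lower in EVI1 than in vector cells under ATRA. It was lower in EVI1 than in vector cells under ATRA without EVI1 ATRA array 1, at -0.69 (adjusted p = 0.0301), and with the block it then also fell with ATRA in EVI1 cells, at -0.47 (adjusted p = 0.00799).

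In vector cells at the same dose and time, 0 of the 45 genes were called. Of the 45 differences, 27 were below 0 and 18 above, where 50.3% of all genes were below 0, with a median of -0.03. In the limma fit 0 genes fell and 0 rose, where 1.52% and 2% of all genes did. At an unadjusted p under 0.05, 0 were lower and 3 higher, against 8.34% of all genes lower and 9.09% higher. With the block, 0 fell and 3 rose, where 10.1% of all genes fell and 9.96% rose. The 3 were ORC6, by 0.38 ± 0.16 (SE, n = 3; adjusted p = 0.26, 0.0409 with the block), PRIM1, by 0.39 ± 0.15 (0.197 and 0.0402), and RPA3, by 0.34 ± 0.12 (0.143 and 0.0428). For each of them all vector ATRA arrays lay above all vector DMSO arrays, as for 12% of all genes. MCM4 lay the other way, with all vector ATRA arrays below (11.4% of all genes), at -0.34 (adjusted p = 0.374, 0.13 with the block). With the block and without EVI1 ATRA array 1, chosen after seeing the data, CCNE1, CDC25A, MCM10, MCM4 and POLD2 fell in vector cells (10.9% of all genes). The same 3 genes rose there (10.6%).

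The difference between the cell populations in their ATRA response, the interaction, was below 0 for 44 of the 45 genes, where 54.5% of all genes were, with a median of -0.51, against -0.02 over all genes. ORC6 was the exception, at 0.02. By limma 0 of the 45 passed, as did 0% of all 14080 genes, with a smallest adjusted p of 0.998 for the 45, or 0.346 with the block. At an unadjusted p under 0.05, 5 of the 45 were lower and 0 higher, against 1.26% and 1.31% of all genes. A larger response of these genes in EVI1 cells was therefore not called. With the block and without EVI1 ATRA array 1, an alternative chosen after seeing the data, 29 of the 45 were called lower, against 1.53% of all genes. With the block and without array 2 or array 3, 0 were.

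**Figure D4:**
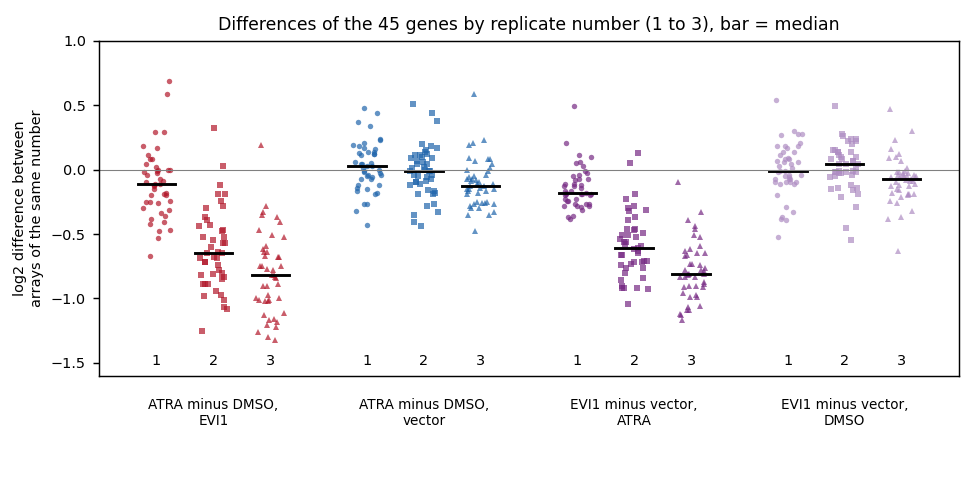
Log2 differences of the 45 genes between arrays of the same replicate number in 4 comparisons, with the median as a bar. The medians were -0.11, -0.65 and -0.82 for ATRA minus DMSO in EVI1 cells, 0.03, -0.01 and -0.13 in vector cells, -0.18, -0.61 and -0.81 for EVI1 minus vector under ATRA, and -0.01, 0.04 and -0.07 under DMSO.

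Between arrays of the same number, ATRA minus DMSO in EVI1 cells was below 0 for 31 genes at number 1, 43 at number 2 and 44 at number 3, where 51.9%, 52% and 52.2% of all genes were. At all 3 numbers it was below 0 for 31 genes (31.1% of all genes) and above 0 for ORC6 alone (26.9% of all genes). In vector cells 18 genes were below 0 at all 3 numbers (27.4% of all genes) and 9 above (25.9%).

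Under DMSO, 0 of the 45 genes were called between EVI1 and vector cells. The differences were below 0 for 22 genes, above 0 for 22 and 0 for RRM1, where 45.1% of all genes were below 0, with a median of 0. The limma fit called 0 lower and 0 higher, where 0.682% and 0.533% of all genes were, and with the block 0 again, where 2.99% and 4.2% were. At an unadjusted p under 0.05, 2 were lower and 0 higher, against 4.03% and 5.76% of all genes. These were MCM4, at -0.45 ± 0.18 (SE, n = 3; adjusted p = 0.398), and PCNA, at -0.35 ± 0.14 (adjusted p = 0.401). Without EVI1 ATRA array 1, which enters this comparison only through the shared spread, MCM4 was called lower. All EVI1 DMSO arrays lay below all vector DMSO arrays for 5 genes (6.35% of all genes) and above them for MCM7 and RFC2 (8.23%). The largest differences were GINS4, at -0.50 ± 0.23 (adjusted p = 0.515), and MCM7, at 0.50 ± 0.26 (adjusted p = 0.597).

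Under ATRA, EVI1 cells had lower levels than vector cells for 44 of the 45 genes, where 52% of all genes were lower, with a median of -0.53, against -0.01 over all genes. This comparison shares its EVI1 ATRA arrays with the ATRA comparison in EVI1 cells. By limma 5 genes were lower and 0 higher, where 2.33% of all genes were lower and 3.28% higher, and with the block 34 were lower, where 12.3% were. The 5 were MCM4, at -0.77 ± 0.18 (SE, n = 3; adjusted p = 0.0304), POLA2, at -0.64 ± 0.15 (0.0334), PCNA, at -0.66 ± 0.14 (0.0194), RFC1, at -0.59 ± 0.13 (0.0203), and RPA3, at -0.50 ± 0.12 (0.029). Under DMSO these 5 differed by -0.45, -0.09, -0.35, -0.24 and -0.17 in the same order, and with all 12 arrays 0 were called. RFC1 and RPA3 were not among the genes that fell with ATRA in EVI1 cells without the block. Under ATRA, MCM7 differed by -0.06 ± 0.26 (adjusted p = 0.942), beside -0.64 for MCM2 and -0.77 for MCM4. GINS4 had the largest difference, -0.80 ± 0.23 (adjusted p = 0.0701, 0.00978 with the block). All EVI1 ATRA arrays lay below all vector ATRA arrays for 6 genes, against 9.03% of all genes. Without EVI1 ATRA array 1, 41 genes were lower (7.17% of all genes), and without array 2 or array 3, 0 were (1.07% and 0.881%). The count was 1 without vector ATRA array 1 (1.19%) and 0 without vector ATRA array 2 or array 3 (1.23% and 1.01%).

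Most genes with further probe sets gave the same direction on them. Of 39 other probe sets of the 45 genes that passed the signal limit, 37 had the sign of the chosen one for ATRA in EVI1 cells. The exceptions were 1 each of RFC5, at 0.65, and E2F2, at 0.01.

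Other replication genes, from a list of 36 of which 35 were tested, were mostly lower as well. With ATRA in EVI1 cells 32 of the 35 were below 0 (53.8% of all genes), with a median of -0.43. By limma 9 fell and 1 rose, where 7.66% and 7.45% of all genes did. With the block 21 fell and 1 rose, where 19.4% and 16.3% did. The 9 that fell by limma included CDCA7, at -1.23, the uracil glycosylase UNG, at -0.86, the fork protection factor TIPIN, at -0.80, and the histone chaperone subunit CHAF1B, at -0.69. POLD4, the small subunit of polymerase delta, rose by 1.04 in EVI1 cells and 0.94 in vector cells. GINS1, the partner of GINS2, GINS3 and GINS4, was lower in EVI1 than in vector cells under DMSO, at -0.95, and under ATRA, at -1.36. Under DMSO these partners differed by 0.06, -0.07 and -0.50, and with all 12 arrays none of them was called. Under ATRA 5 genes of the list were lower in EVI1 than in vector cells (2.33% of all genes), or 18 with the block (12.3%). ORC5, an origin recognition subunit, was higher in EVI1 cells with the block under DMSO and under ATRA. Of 31 mitosis genes tested, 29 were below 0 with ATRA in EVI1 cells, with a median of -0.26. Of the 31, 0 fell without the block and 9 with it, where 7.66% and 19.4% of all genes fell.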

How the data were processed

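Transcript levels of 12 U937 cultures in 4 groups were analysed from 1 table. It holds the authors' deposited log2 values for 54675 probe sets, made with RMA (background correction, normalisation between arrays and summary of probes) with Affymetrix Expression Console 1.3 according to the submitters' processing notes. The annotation gave 1 symbol to 41097 probe sets, several to 1801 and does not list 11777. Genes with a log2 level of at least 5 on at least 3 arrays entered a limma fit of 4 group means (lmFit, eBayes, 2-sided, 8 residual degrees of freedom, version 3.58.1 under R 4.3.3). P-values were adjusted by Benjamini and Hochberg over 14080 genes, and adjusted values under 0.05 count as called. "Fell" and "rose" are used for called genes. The replicate number comes from the labels. Deviations from group means correlated in 18 of 18 same-number pairs (r 0.408 to 0.704), so the fit with the number as a block is given beside the members' calls and the counts of other lists that it changes. The script was tested on simulated data. The number of arrays limits the precision.

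Per-array values are given for members called in at least 1 comparison with or without the block, and for the member with the largest ATRA difference in EVI1 cells of each role group. Members and lists were chosen with earlier results of these data known. Alternatives covered the filter, probe sets, scaling, variance model, array weights, fewer groups and arrays left out.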

Additional observations from a re-analysis of the deposited data

Results flagged for a closer look

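For TK1 and E2F1, ATRA minus DMSO was below 0 in EVI1 cells and above 0 in vector cells at every replicate number, by small margins at some, and neither gene was called in vector cells. For TK1, ATRA minus DMSO between arrays of numbers 1, 2 and 3 was -0.02, -0.47 and -0.67 in EVI1 cells, and 0.48, 0.15 and 0.01 in vector cells. For E2F1 it was -0.42, -0.43 and -0.68 in EVI1 cells, and 0.24, 0.02 and 0.08 in vector cells. The difference between the responses was -0.60 for TK1 and -0.623 for E2F1. It was tested as the interaction and was not called for either gene, with a limma adjusted p of 0.998, or 0.346 or more with the replicate block. With the block and without EVI1 ATRA array 1, an alternative chosen after seeing the data, both were called, TK1 at -0.82 (adjusted p = 0.0438) and E2F1 at -0.70 (adjusted p = 0.0376).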

How the results depend on the processing

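The numbers of genes called depended on how the spread was estimated, while 0 of the called differences reversed. For ATRA in EVI1 cells 13 genes fell (7.66% of all genes), and 5 were lower in EVI1 than in vector cells under ATRA (2.33%). With the replicate number as a block, these were 33 (19.4% of all genes, and 1 higher against 16.3%) and 34 (12.3%). With the block, 3 also rose with ATRA in vector cells (9.96%). Array weights gave 35 and 39 (15.5% and 9.34% of all genes), with 1 higher with ATRA in vector cells (4.79%). Adjustment over all probe sets gave 3 and 2, and the share over all genes was not computed there. With only the groups compared in the fit both were 0 (2.39% and 0.824% of all genes). Without both DMSO arrays of number 3 they were 2 and 3 (5.73% and 1.7% of all genes). No filter, a stricter filter, the mean of probe sets, centring, quantile scaling and the trended robust model gave 12 to 17 for ATRA in EVI1 cells. In these settings 4.94% to 10.5% of all genes fell. Leaving out 1 array or 1 number gave 0 to 37 and 0 to 41 genes, against 0.0284% to 12.7% and 0.0852% to 7.17% of all genes. The medians were -0.80 to -0.38 and -0.81 to -0.36. Under DMSO, 0 to 1 gene was lower in EVI1 cells (0.0781% to 0.753% of all genes). Fewer arrays leave fewer degrees of freedom in these fits, and the cause of each change was not tested. The block was also combined, after seeing the data, with leaving out 1 EVI1 ATRA array. Without array 1, 42 fell with ATRA in EVI1 cells (19.7% of all genes), and 5 fell and 3 rose in vector cells (10.9% and 10.6%). EVI1 cells were then lower than vector cells for 3 and higher for 1 under DMSO (3.3% and 4.65%). Under ATRA they were lower for 43 (14.5%), and 29 interactions were called lower (1.53%). Without array 2, 21 fell and 1 rose with ATRA in EVI1 cells (15.6% and 12.6%), and under ATRA 11 were lower than in vector cells (7.02%). Without array 3, 22 fell and 1 rose in EVI1 cells (14.9% and 12.8%), and 3 rose in vector cells (10.6%). In EVI1 cells 1 was then higher than in vector cells under DMSO (4.69%), and 14 were lower under ATRA (6.36%).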

Other observations

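Some of the genes that control G1 outside the replication list were called with ATRA. Of 25 listed, 23 were tested. In EVI1 cells 6 fell and 2 rose by limma, where 7.66% and 7.45% of all genes did. With the replicate block these were 9 and 2, where 19.4% and 16.3% of all genes fell and rose. In vector cells 2 fell and 2 rose (1.52% and 2% of all genes), or 3 and 2 with the block (10.1% and 9.96%). CDKN1A, the CDK inhibitor p21, averaged 10.64 ± 0.30 in EVI1 ATRA cells and 9.15 ± 0.51 in EVI1 DMSO cells (SD, n = 3 each), and 9.08 ± 0.16 in vector ATRA cells and 7.85 ± 0.27 in vector DMSO cells. It rose with ATRA in both populations, by 1.49 in EVI1 cells (limma adjusted p = 0.00262) and 1.23 in vector cells (adjusted p = 0.0192), and was higher in EVI1 than in vector cells by 1.3 under DMSO (adjusted p = 0.02). CDKN2D, the inhibitor p19 of CDK4 and CDK6, rose by 0.89 in EVI1 cells and 1.02 in vector cells. E2F5, a member of the E2F family, fell in both, with differences of -1.31 in EVI1 cells and -1.06 in vector cells.

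MYC averaged 10.72 ± 0.46 in EVI1 ATRA cells and 12.52 ± 0.13 in EVI1 DMSO cells (SD, n = 3 each), and 11.58 ± 0.10 in vector ATRA cells and 12.44 ± 0.07 in vector DMSO cells. It fell with ATRA in both populations, with differences of -1.80 in EVI1 cells and -0.86 in vector cells. CDK4, CDK6 and the E2F partners TFDP1 and TFDP2 fell in EVI1 cells, with differences of -0.70, -0.35, -0.51 and -0.49. In vector cells the same genes differed by -0.28, -0.33, -0.22 and -0.23, and of these CDK6 was called with the block (adjusted p = 0.0898, 0.0184 with it). CDK6, the partner of D cyclins, was higher in EVI1 than in vector cells by 0.57 under DMSO and 0.55 under ATRA. Of the 23 genes, 2 were lower and 2 higher in EVI1 than in vector cells under ATRA (2.33% and 3.28% of all genes). With the block these were 9 and 2 (12.3% and 13%). The interaction was called for 0 of the 23 genes by limma.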
